A study of Mus musculus with 23 samples.

Results

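The comparison described here set the livers of mice given 1-MIM-OH over 21 d against those of mice given the vehicle alone, 11 of the 23 samples in the study: 5 treated and 6 vehicle animals. Samples were chosen by their labels, and each is the total RNA of 1 liver on 1 Affymetrix Mouse Genome 430 2.0 array, so replicates are separate animals. All mice, controls included, were male hemizygous FVB/N-SULT1A1/2 animals. The labels give an age of 5 weeks to the 21 d and the 90 d mice alike, so it cannot be the age at killing of both. The treated group had received 10 oral treatments of 26 mg/kg body mass at 3 per week, the vehicle group glyceryl trioctanoate alone, and both were killed 24 h after the last treatment. The other 12 samples, 6 treated and 6 vehicle mice after 40 treatments over 90 d, shared the estimate of spread and are compared only where stated. A sixth treated mouse of the 21 d group was left out by the submitters for hybridisation artefacts and was not analysed here.

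1-MIM-OH, 1-methoxy-3-indolylmethanol, is formed when glucosinolates of cabbage vegetables break down. Sulfotransferases of the SULT1A family convert it into a reactive sulfate ester that binds to DNA, and the FVB/N-SULT1A1/2 line carries the human genes SULT1A1 and SULT1A2, so the vehicle group shows the transgenic liver without the compound. Cross-hybridisation of the human transcripts to mouse probes was not tested. In hepatocytes, DNA lesions stabilise p53, a transcription factor that raises inhibitors of the cell cycle, regulators of survival and apoptosis, and some repair enzymes. Very long genes such as Fhit and Wwox lie over common fragile sites, where transcription and replication are easily disturbed.

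The label liver was checked first. Alb, the albumin gene, stood between 15.19 and 15.28 on the log2 signal scale in all 11 arrays, and Ttr, Apoa1, Apob, Tat and Hnf4a had group means of 12.35 or more. Values are RMA (robust multi-array average) signals on a log2 scale, where a difference of 1 is a 2-fold change. Whole-liver RNA cannot tell fewer cells of a type apart from less RNA per cell.

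The arrays of both groups differed in a measure of RNA quality. The array's control probe sets read the Gapdh and beta-actin transcripts near its 3' end and near its 5' end, and their 3' minus 5' difference grows when RNA or labelled product is shortened. For Gapdh the difference was 1.18, 0.14, 1.02, 1.23 and 1.45 in treated mice 1 to 5. In vehicle mice 1 to 6 it was 0.33, 0.49, 0.38, 0.09, 0.32 and 0.38. Treated mice 1, 3, 4 and 5 therefore lay above every vehicle mouse and treated mouse 2 below 5 of the 6. The means were 1.00 ± 0.507 (SD, n = 5) and 0.332 ± 0.133 (SD, n = 6), a difference of 0.672 (2-sided exact permutation test, p = 0.0216). The beta-actin difference was 2.62, 1.51, 2.44, 2.45 and 2.69 in treated mice 1 to 5 and 1.72, 1.86, 1.74, 1.59, 1.79 and 1.86 in vehicle mice 1 to 6. Again 4 treated arrays were above all vehicle arrays and treated mouse 2 was the lowest of the 11, with means differing by 0.582 (exact permutation test, p = 0.0303). At 90 d the treated and vehicle means of the Gapdh difference were 0.0317 apart (exact permutation test, p = 0.909). Calls are given beside their value with the Gapdh difference of every array added to the model as a covariate, and its part in them beyond that fit was not tested.

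**Figure D1:**
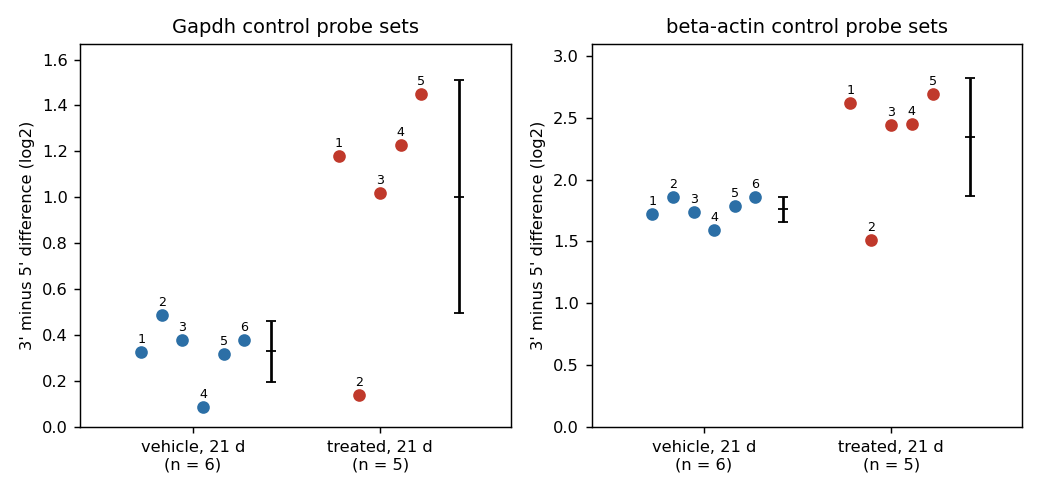
The 3' minus 5' difference (log2) of the Gapdh (left) and beta-actin (right) control probe sets in each 21 d array, numbered by mouse, with the mean ± SD of the group beside the points. Treated mouse 2, at 0.14 and 1.51, lies with the vehicle mice, and the other 4 treated mice lie above all 6 of them.

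Treated mouse 2 also stood apart in its whole profile. It correlated with the other treated arrays at 0.984 to 0.987 over all probe sets, whereas those 4 correlated with each other at 0.991 to 0.995 and the vehicle arrays among themselves at 0.990 to 0.997. Array medians were near equal, between 5.53 and 5.57. Results that rest on this mouse are given with and without it.

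Between treated and vehicle mice 213 of 18193 genes differed at a Benjamini-Hochberg adjusted p under 0.05 (limma fit over all 23 arrays), 1.17% of the genes tested. Of these, 105 rose (0.577% of the genes tested) and 108 fell (0.594%), and 6 changed by at least 2-fold: Cdkn1a, Cplane1 and Phlda3 upwards and Fhit, Id1 and Abcd2 downwards. All 5 treated mice lay beyond all 6 vehicle mice in 151 of the 213 (2.81% of all genes), a count that the choice of genes by the same mice largely fixes. All 213 kept their sign with the Gapdh covariate, and 31 still passed there, where 0.401% of all genes passed. Among the 213, 155 had a smaller fold with the covariate and 194 a larger standard error (SE). Counting probe sets, 431 of 45037 passed (0.957%). This count moved with single animals: it was 146, 2265 (995 genes, 5.47% of those tested), 186 and 149 without treated mouse 1, 2, 3 or 4, and 133, 159, 211, 174 and 162 without vehicle mouse 2, 3, 4, 5 or 6. It was 694 and 905 without treated mouse 1 or 6 of the 90 d group, which share the estimate of spread. The calls of 52 genes held whichever of the 23 arrays was left out.

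The 35 measured genes of a list of p53 targets held 6 that rose and none that fell, where 0.577% of all genes rose. The 6 were Cdkn1a, Phlda3, Dglucy, Aen, Polk and Ccng1; of these Ccng1 was named after its values were seen. The median log2 fold change of the list was 0.20, against -0.02 over all genes and 0.21 for fatty acid synthesis genes, none of which passed. Of the 35 p53 targets 25 had a positive value, against 7951 of 18193 genes and 17 of 21 fatty acid synthesis genes. Among the p53 targets 10 had all treated mice above all vehicle mice (1.53% of all genes). The mean level of the list was 8.30, 8.54, 8.35, 8.29 and 8.18 in treated mice 1 to 5 and between 7.97 and 8.05 in the vehicle mice, so the groups did not overlap and treated mouse 2, with its low Gapdh difference, was the highest. With the Gapdh covariate 5 members rose (0.165% of all genes) and the median was 0.25. Without treated mouse 2, 7 rose (2.82% of all genes) and 1 fell (2.65%); without the 5 arrays of high Gapdh difference, which leaves mouse 2 as the only 21 d treated animal, 6 rose (0.775%) and 1 fell (0.456%). The list was chosen with results of these data known, so its count is a description.

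The RefSeq promoter table (GRCm38.p6) holds the 250 bases before a start site for 4 of these 6 genes with a match to the p53 decamer, the repeat unit of the p53 response element, and they are printed to show where the letters lie. The capitals mark exact matches to the decamer, which was searched on both strands. Matches of its palindromic pattern are the same on either strand. Stretches that differ from the pattern in any letter stay in lower case. The windows are chr17:29090729-29090978 (plus strand) for the upstream of 2 starts of Cdkn1a, chr11:40755287-40755536 (minus strand) for Ccng1, chr7:78895808-78896057 (plus strand) for a start of Aen and chr13:96519188-96519437 (minus strand) for the downstream of 2 starts of Polk.
Cdkn1a: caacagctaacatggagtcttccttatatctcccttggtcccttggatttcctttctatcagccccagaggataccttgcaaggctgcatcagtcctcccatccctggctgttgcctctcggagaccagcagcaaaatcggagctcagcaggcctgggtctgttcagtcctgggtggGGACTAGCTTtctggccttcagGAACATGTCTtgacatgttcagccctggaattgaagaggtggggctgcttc
Ccng1: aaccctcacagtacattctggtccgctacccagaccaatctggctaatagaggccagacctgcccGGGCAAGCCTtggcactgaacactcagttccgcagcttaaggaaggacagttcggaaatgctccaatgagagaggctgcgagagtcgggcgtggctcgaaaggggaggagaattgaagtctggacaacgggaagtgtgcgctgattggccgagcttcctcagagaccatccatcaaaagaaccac
Aen: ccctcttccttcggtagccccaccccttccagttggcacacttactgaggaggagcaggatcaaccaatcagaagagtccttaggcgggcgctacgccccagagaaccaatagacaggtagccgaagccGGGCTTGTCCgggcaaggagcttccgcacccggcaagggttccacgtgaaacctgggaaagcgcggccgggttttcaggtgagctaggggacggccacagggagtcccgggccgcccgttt
Polk: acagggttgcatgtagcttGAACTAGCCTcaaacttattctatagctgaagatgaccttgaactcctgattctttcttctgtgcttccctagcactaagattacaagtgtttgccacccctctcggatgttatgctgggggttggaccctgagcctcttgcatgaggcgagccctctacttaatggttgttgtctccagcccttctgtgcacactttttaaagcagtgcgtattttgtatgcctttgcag
The Cdkn1a window holds decamers that begin 73 and 51 bases before the start. Those of Ccng1, Aen and Polk begin 185, 121 and 231 bases before it. Cdkn1a, Aen and Polk each have another window, which held no match. Mdm2, which did not pass, held a decamer 186 bases before its start. Of 14452 measured genes with a window, 1085 (7.5%) held a decamer and 8 (0.06%) held a pair no more than 13 bases apart, as Cdkn1a does. The letters right after the second Cdkn1a match miss the pattern only in the first base and are not marked. Which of these stretches p53 binds was not tested. Among the p53 targets 12 of 29 (41.4%) held a decamer. Among the genes that rose it was 11 of 89 (12.4%), and among those that fell 2 of 82 (2.4%). The 89 include the 6 p53 targets that passed, 4 of them with a decamer, so their share is not separate from that list. The windows of Phlda3 and Dglucy held none, which says only that these letters are not in them.

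Cdkn1a had the largest rise of the p53 targets. It encodes p21, the inhibitor of cyclin-dependent kinases that p53 raises after DNA damage. Its signal was 8.98, 10.26, 9.59, 9.35 and 8.95 in treated mice 1 to 5, against a lowest value of 6.41, a median of 6.84 and a highest of 7.17 in the vehicle mice. Every treated mouse exceeded every vehicle mouse, and treated mouse 2 had the highest value. Cdkn1a rose by 2.60 ± 0.36 (SE) on the log2 scale, a 6.06-fold increase (limma, adjusted p = 0.00135), by 3.06 with the Gapdh covariate (adjusted p = 0.00138) and by 2.39 without treated mouse 2 (adjusted p = 0.00191). Its other probe set rose by 1.78 (adjusted p = 0.0283). Ccng1, cyclin G1, was at 10.44, 10.50, 10.45, 10.33 and 10.55 in the treated mice and between 9.75 and 10.03 in the vehicle mice. The groups were apart, and the rise was 0.54 ± 0.12 (adjusted p = 0.0385). With the covariate the value was 0.68 but did not pass (adjusted p = 0.0619), and the call was also lost in 10 of the 23 fits that left out an array, where the adjusted p reached 0.0838. Gadd45a, a stress-response gene named after its values were seen, showed 0.46 (adjusted p = 0.613) with all mice and 0.99 (adjusted p = 0.0262) without treated mouse 2, which at 5.68 was far below the other treated mice at 7.72 to 8.94. With the Gapdh covariate the value was -0.31 (adjusted p = 0.919). Btg2, an antiproliferative gene, showed 0.01 (adjusted p = 0.99), or 0.71 with the covariate (adjusted p = 0.183), and had 9.08 in treated mouse 2 against 6.85 to 7.92 in the others. Without the 5 arrays of high Gapdh difference, a fit whose only 21 d treated animal is mouse 2, Btg2 was at 1.26.

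Among p53 targets that act on survival and death, Phlda3 rose most. It encodes a pleckstrin homology protein that restrains Akt signalling. The treated mice had 7.81, 8.25, 7.88, 7.78 and 7.36, and the vehicle mice lay between 6.53 and 6.71 with a median of 6.65. The gap between the groups was wider than the range of the vehicle mice, and the rise was 1.17 ± 0.20, or 2.26-fold (limma, adjusted p = 0.00829), and 1.56 with the covariate (adjusted p = 0.00138). Aen, an exonuclease linked to apoptosis, was at 8.89, 9.09, 9.0, 8.87 and 8.60 in the treated mice against 8.16 to 8.55 in the vehicle mice. The lowest treated mouse was just above the highest vehicle mouse, and Aen rose by 0.57 ± 0.11 (adjusted p = 0.0178; with the covariate 0.73, adjusted p = 0.0138). Its 3 other probe sets had values from -0.03 to 0.33, none of which passed. Of members named after their values were seen, the apoptosis inducers Bbc3 (0.42, adjusted p = 0.103), Pmaip1 (-0.22, adjusted p = 0.762) and Fas (-0.15, adjusted p = 0.758) did not pass, nor did the ectodysplasin receptor Eda2r (0.87, adjusted p = 0.114). Eda2r passed with the covariate (1.53, adjusted p = 0.0138), and Pmaip1 passed without treated mouse 2 (-0.62, adjusted p = 0.0442; with the covariate 0.45, adjusted p = 0.714).

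Feedback on p53 showed no call. Mdm2, the ubiquitin ligase that degrades p53, was at 8.51, 9.02, 8.99, 9.26 and 8.80 in the treated mice and between 8.38 and 8.74 in the vehicle mice. Only treated mouse 1 fell within the vehicle range, and the difference of 0.30 ± 0.20 did not pass (limma, adjusted p = 0.512; with the covariate 0.60, adjusted p = 0.459). Ppm1d, the phosphatase that switches off p53, named after its values were seen, had a difference of -0.01 (adjusted p = 0.983).

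In the group of p53 targets that act on metabolism and repair, Dglucy and Polk rose. Dglucy, which encodes D-glutamate cyclase, was at 8.60, 8.68, 8.71, 8.5 and 8.57 in treated mice 1 to 5 and at 7.71 to 8.13 in the vehicle mice. These values were tight and apart, with a rise of 0.72 ± 0.12 (limma, adjusted p = 0.00826; with the covariate 0.74, adjusted p = 0.045). Polk encodes DNA polymerase kappa, a translesion polymerase that copies past bulky adducts on guanine. It stood at 7.43, 7.48, 7.40, 7.71 and 7.29 in the treated mice against 6.76 to 7.17 in the vehicle mice. The groups did not overlap, and Polk rose by 0.56 ± 0.12 (adjusted p = 0.03; with the covariate 0.64, adjusted p = 0.0819). The call of Polk was lost without treated mouse 1, 3 or 4 or vehicle mouse 2, 3, 4 or 6, with an adjusted p of at most 0.0879, and its other probe set had a difference of -0.14 (adjusted p = 0.537). Ephx1, microsomal epoxide hydrolase, named after its values were seen, showed 0.44 (adjusted p = 0.0797).

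**Figure D2:**
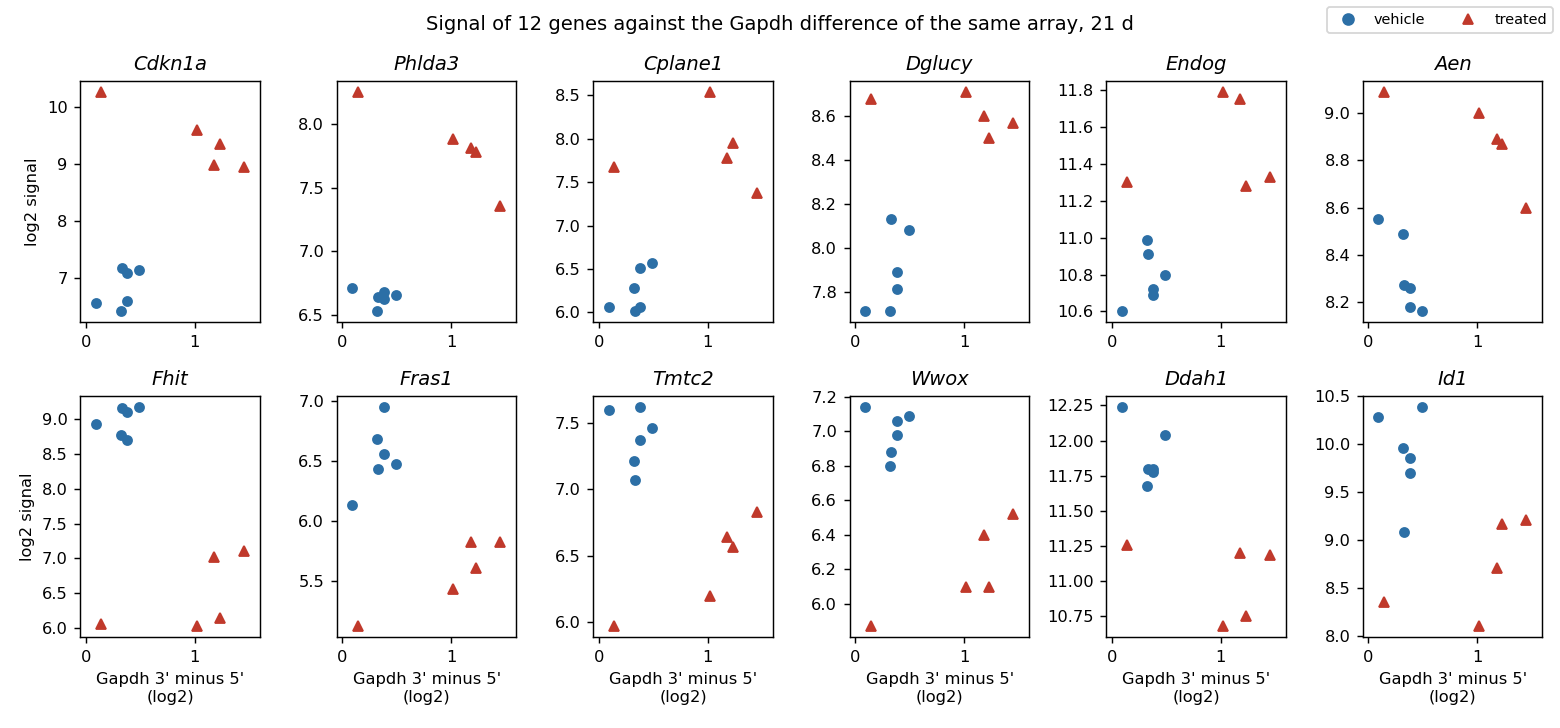
The log2 signal of 12 genes (y axis) against the Gapdh 3' minus 5' difference (log2) of the same array (x axis) in the 21 d mice, with vehicle mice as circles and treated mice as triangles. For Cdkn1a, Phlda3 and Fhit, treated mouse 2 at a Gapdh difference of 0.14 lies with the other treated mice, away from vehicle mice of similar difference.

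The remaining genes that rose most have no place in the list of p53 targets. Cplane1, a ciliogenesis and planar polarity effector, had 7.78, 7.68, 8.54, 7.95 and 7.37 in treated mice 1 to 5. Vehicle mice ranged from 6.01 to 6.57 with a median of 6.17, below all treated mice. The rise of 1.62 ± 0.26, or 3.07-fold (limma, adjusted p = 0.00522), was 1.75 with the Gapdh covariate (adjusted p = 0.0152). A second of its 7 probe sets also rose, by 1.59 (adjusted p = 0.011), and the other 5 had differences between -0.08 and 0.53 without passing. So the gain was seen by part of the probe sets assigned to the gene.

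Endog encodes a mitochondrial endonuclease that can cut nuclear DNA. It was at 11.75, 11.30, 11.79, 11.28 and 11.33 in the treated mice and between 10.60 and 10.99 in the vehicle mice. The groups were apart, with a rise of 0.71 ± 0.10 (limma, adjusted p = 0.00236; with the covariate 0.67, adjusted p = 0.0194). Cdhr5, a cadherin-related membrane protein, was at 10.60, 10.54, 10.51, 10.60 and 10.39 against 9.36 to 9.87. Its rise of 0.86 ± 0.14 (adjusted p = 0.00522) was 0.61 with the covariate and no longer passed (adjusted p = 0.127).

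Tmprss2, a transmembrane serine protease, showed 7.82, 8.20, 7.99, 8.03 and 7.23 in the treated mice and 6.65 to 7.49 in the vehicle mice. Treated mouse 5, which had the highest Gapdh difference, overlapped the vehicle range, and the rise was 0.75 ± 0.16 (limma, adjusted p = 0.0304), or 1.10 with the covariate (adjusted p = 0.00307). It was lost without treated mouse 1, 3 or 4 or vehicle mouse 2, 3 or 6 (adjusted p at most 0.0808) and in the 21 d arrays alone (adjusted p = 0.0943). Aaas, a nuclear pore protein, was at 7.69, 8.40, 7.76, 7.84 and 7.61 against 7.02 to 7.34. No treated mouse overlapped the vehicle mice, and Aaas rose by 0.68 ± 0.14 (adjusted p = 0.0284; with the covariate 0.90, adjusted p = 0.0153). Without treated mouse 4 or vehicle mouse 3, 5 or 6 its adjusted p reached at most 0.0616. 1810055G02Rik rose by 0.84 (adjusted p = 0.0198; with the covariate 1.17, adjusted p = 0.00379), and its call was lost without treated mouse 4 or vehicle mouse 2 or 6 (adjusted p at most 0.0638) or in the 21 d arrays alone (adjusted p = 0.0528).

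Several rises did not pass with the Gapdh covariate. Spns2, a sphingosine-1-phosphate transporter, was at 8.61, 8.14, 8.64, 8.04 and 8.03 against 7.29 to 7.73 and rose by 0.73 (limma, adjusted p = 0.014), and 0.56 remained with the covariate (adjusted p = 0.219). Lmna, which encodes lamins A and C of the nuclear envelope, rose by 0.64 (adjusted p = 0.0491), with 8.94 to 9.34 in the treated and 8.35 to 8.67 in the vehicle mice. With the covariate it was 0.25 (adjusted p = 0.725). Marveld1 rose by 0.59 (adjusted p = 0.0404) and Arfgap1, a regulator of Golgi traffic, by 0.55 (adjusted p = 0.0418). Treated mouse 2 was the lowest treated mouse for both, at 10.03 and 8.39. The values with the covariate were 0.33 (adjusted p = 0.554) for Marveld1 and 0.29 (adjusted p = 0.598) for Arfgap1. Klhl25, an adaptor of a ubiquitin ligase, and Ttll1, a tubulin polyglutamylase, rose by 0.65 and 0.59 and lost their calls with the covariate (adjusted p = 0.438 and 0.466). Lsr, the lipolysis-stimulated lipoprotein receptor, rose by 0.55 (adjusted p = 0.0325), Snhg14, a noncoding RNA host gene, by 0.65 (adjusted p = 0.0404), and A530020G20Rik by 0.55 (adjusted p = 0.0213). None of these 3 passed with the covariate (adjusted p = 0.357, 0.249 and 0.268). The call of A530020G20Rik was lost without treated mouse 1 or vehicle mouse 5, and that of Lsr without treated mouse 1 or 5 or vehicle mouse 3, 4, 5 or 6. Calls of Lmna, Marveld1, Arfgap1, Klhl25, Ttll1 and Snhg14 were lost in 18, 11, 15, 10, 16 and 8 of the 23 fits that left out an array, where the adjusted p was at most 0.125. In the 21 d arrays alone Klhl25, Snhg14, Ttll1, Marveld1, A530020G20Rik, Arfgap1 and Lsr did not pass either (adjusted p = 0.0757, 0.0779, 0.112, 0.0999, 0.0528, 0.0606 and 0.0564).

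Very long genes and genes at fragile sites held 5 of 35 measured members that fell and none that rose, where 0.594% of all genes fell. They were Fhit, Gmds, Wwox, Pard3b and Naaladl2, of which Naaladl2 was named after its values were seen. The list median was -0.04 against -0.02 over all genes. Of the 35, 22 had a negative value, against about 10240 of 18193 genes, so the list did not fall as a whole. The mean level of the list was 7.24, 7.04, 7.14, 7.14 and 7.22 in treated mice 1 to 5 and between 7.25 and 7.40 in the vehicle mice. The groups were thus apart only by a narrow margin. This mean includes Fhit, the member that fell most, and whether a gap remains without Fhit was not tested. In 4 of the 35 all treated mice were below all vehicle mice (1.28% of all genes). With the Gapdh covariate 3 members fell (0.236% of all genes), and without treated mouse 2, 5 fell (2.65%). The list was made with results of these data known.

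Fhit, a diadenosine triphosphate hydrolase whose gene spans the best-known fragile site, fell most. Its signal was 7.02, 6.05, 6.02, 6.14 and 7.10 in treated mice 1 to 5, against 8.70 to 9.18 with a median of 9.02 in the vehicle mice. The highest treated mouse was far below the lowest vehicle mouse, and treated mice 2, 3 and 4 were lower than 1 and 5. Fhit fell by 2.51 on the log2 scale (SE 0.34), 5.70-fold lower (limma, adjusted p = 0.00111). With the covariate the log2 fold change was -3.15 (adjusted p = 0.000831), and without treated mouse 2 it was -2.41 (adjusted p = 0.00159). The gene has a single probe set.

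Wwox, an oxidoreductase at another fragile site, was at 6.40, 5.87, 6.10, 6.10 and 6.52 in the treated mice and between 6.80 and 7.14 in the vehicle mice. The groups were apart, and the log2 fold change was -0.79 ± 0.16 (limma, adjusted p = 0.0247; with the covariate -1.0, adjusted p = 0.0244). The call was lost without treated mouse 3 or 4 or vehicle mouse 2 or 3 (adjusted p at most 0.0638), and the 3 other probe sets of Wwox had values between -0.21 and 0.08 that did not pass. Gmds, which makes GDP-fucose precursors, had 4.09, 4.35, 4.61, 4.46 and 4.37 against 4.96 to 5.67. These groups did not overlap, and Gmds changed by -0.94 ± 0.15 (adjusted p = 0.00574; with the covariate -0.84, adjusted p = 0.0688). Its mean signal lay below the array medians in both groups.

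Pard3b, a cell polarity protein, was at 6.63, 5.56, 5.84, 6.18 and 6.05 in the treated mice and 6.54 to 7.04 in the vehicle mice. Treated mouse 1 overlapped the vehicle range. The change was -0.78 ± 0.16 (limma, adjusted p = 0.0197), -1.12 with the covariate (adjusted p = 0.00218), and its call was lost without treated mouse 3 (adjusted p = 0.0534) and in the 21 d arrays alone (adjusted p = 0.0548). Naaladl2 had 4.98, 4.56, 4.72, 4.45 and 4.76 against 5.22 to 5.46 and changed by -0.63 (adjusted p = 0.0135; with the covariate -0.66, adjusted p = 0.0579). Other long genes, named after their values were seen, did not pass: Fars2 showed -0.48 (adjusted p = 0.14), Macrod2 -0.23 (adjusted p = 0.242), Lrp1b 0.06 (adjusted p = 0.791) and Magi1 -0.02 (adjusted p = 0.943).

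Several further genes fell in every treated mouse. Fras1, an extracellular matrix protein, was at 5.82, 5.12, 5.43, 5.61 and 5.82 in the treated mice and at 6.13 to 6.95 in the vehicle mice. The groups were apart, and the log2 fold change of -0.98 ± 0.17 (limma, adjusted p = 0.00826) was -1.22 with the covariate (adjusted p = 0.00371). Tmtc2, a protein O-mannosyltransferase of the endoplasmic reticulum, was at 6.64, 5.97, 6.20, 6.57 and 6.83 against 7.07 to 7.62. Here too no mouse overlapped, with -0.95 ± 0.15 (adjusted p = 0.00562) and -1.27 with the covariate (adjusted p = 0.000831). Each of these genes has a second, dimmer probe set with a value above 0 (0.14 for Fras1 and 0.21 for Tmtc2) that did not pass.

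Ddah1 degrades asymmetric dimethylarginine, an inhibitor of nitric oxide synthase. Its signal was 11.20, 11.26, 10.68, 10.75 and 11.19 in the treated mice and 11.68 to 12.24 in the vehicle mice. The fall was clear of the spread, at -0.87 ± 0.11 (limma, adjusted p = 0.000968; with the covariate -0.74, adjusted p = 0.0106), and all 5 probe sets of Ddah1 had the same sign. Smyd3, a lysine methyltransferase, lay at 5.73, 5.93, 5.97, 5.88 and 5.84 against 6.44 to 6.89. Treated values lay below all vehicle values, and the change was -0.74 ± 0.10 (adjusted p = 0.000968), or -0.64 with the covariate (adjusted p = 0.0152). The other, dimmer probe set of Smyd3 had a value of 0.06 and did not pass (adjusted p = 0.749).

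The adhesion molecules Ncam2 and Nectin3 both fell, and Ncam2 also passed with the Gapdh covariate. Ncam2 was at 6.02, 5.28, 5.66, 5.72 and 6.07 against 6.35 to 6.82 and changed by -0.77 ± 0.13 (limma, adjusted p = 0.00948), or -1.07 with the covariate (adjusted p = 0.000831). Nectin3 was at 9.51, 10.22, 9.55, 9.42 and 9.41 against 10.19 to 10.47. Treated mouse 2 was within the vehicle range, and the change of -0.76 ± 0.13 (adjusted p = 0.00949) was -0.35 with the covariate (adjusted p = 0.18). Gtdc1, a glycosyltransferase-like protein, changed by -0.72 (adjusted p = 0.00522), Cabcoco1, a ciliary protein, by -0.78 (adjusted p = 0.000968), and Pik3c2g, a phosphoinositide kinase of the liver, by -0.69 (adjusted p = 0.0321). All 3 passed with the covariate (adjusted p = 0.00678, 0.00524 and 0.0024), and the call of Pik3c2g was lost without treated mouse 3 or 4 or vehicle mouse 2, 3, 4 or 6 (adjusted p at most 0.0675). Both group means of Cabcoco1 lay below the array medians. The other, dimmer probe sets of Gtdc1 had values of -0.09 and 0.01 that did not pass.

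Id1, a BMP target whose protein blocks DNA binding by helix-loop-helix factors, was at 8.71, 8.35, 8.10, 9.17 and 9.21 in the treated mice. The vehicle mice ranged from 9.08 to 10.39 with a median of 9.91, so treated mice 4 and 5 overlapped them. Id1 changed by -1.17 ± 0.25, 2.25-fold lower (limma, adjusted p = 0.0286), and by -1.42 with the covariate (adjusted p = 0.0498). The call was lost without treated mouse 1 or 3 or vehicle mouse 2, 3, 4 or 5 (adjusted p at most 0.0696) and in the 21 d arrays alone (adjusted p = 0.0618). Of the 25 genes of the BMP-SMAD list Id1 alone passed, and the list median was -0.06.

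Abcd2, a peroxisomal transporter of very long-chain fatty acids, was at 5.59, 5.39, 5.72, 5.21 and 4.86 against 5.98 to 7.04. No values overlapped, and the change was -1.07 ± 0.19, 2.11-fold lower (limma, adjusted p = 0.0114; with the covariate -0.90, adjusted p = 0.157). Nubpl, an assembly factor of respiratory complex I, was at 8.18, 8.87, 8.61, 8.67 and 8.70 against 9.32 to 9.81 and changed by -0.90 (adjusted p = 0.0049; with the covariate -0.63, adjusted p = 0.114). Arhgap6 changed by -0.98 (adjusted p = 0.0342; with the covariate -1.42, adjusted p = 0.00894), with treated mouse 5 at 8.23 inside the vehicle range of 7.56 to 8.67. Leaving out treated mouse 1, 3 or 4 or vehicle mouse 2, 3 or 6 ended the call of Arhgap6 (adjusted p at most 0.0838), as did the 21 d arrays alone (adjusted p = 0.112). Obp2a, an odorant-binding protein, changed by -0.73 (adjusted p = 0.011) and Cpq, a secreted carboxypeptidase, by -0.69 (adjusted p = 0.0325); neither passed with the covariate (adjusted p = 0.0685 and 0.199). Crem, the cAMP-responsive element modulator, changed by -0.70 (adjusted p = 0.0445), but treated mouse 2 at 8.75 lay within the vehicle range of 8.54 to 8.93, and the value with the covariate was -0.37 (adjusted p = 0.623). The call of Cpq was lost in 8 and that of Crem in 17 of the fits that left out an array (adjusted p at most 0.125), and Crem did not pass in the 21 d arrays alone (adjusted p = 0.0993).

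**Figure D3:**
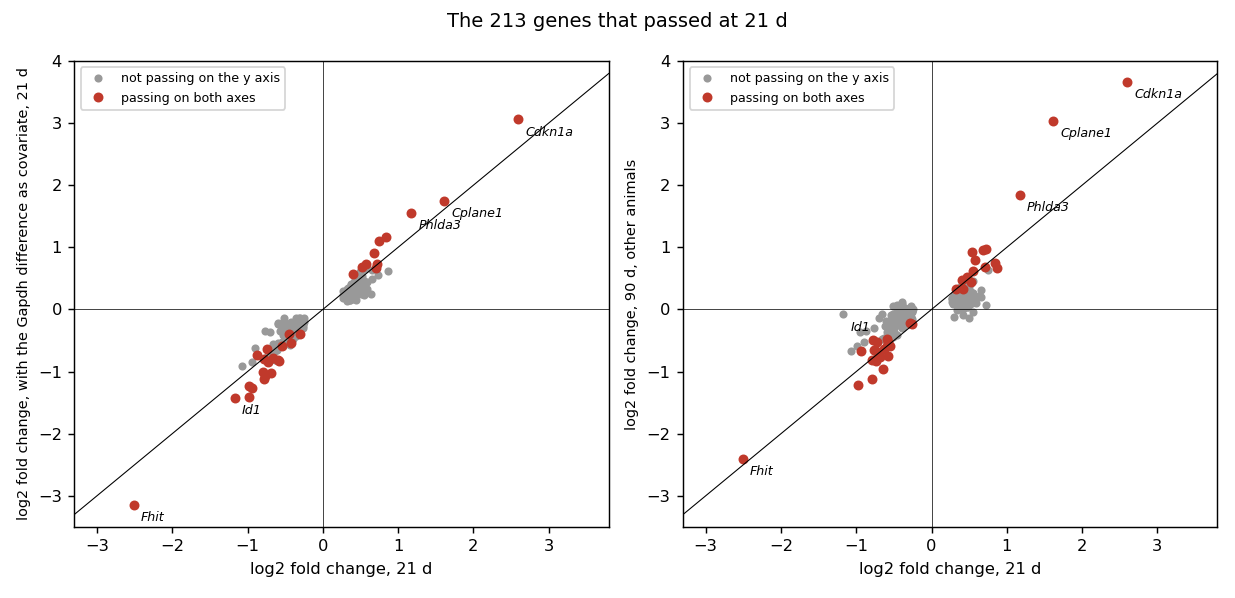
The log2 fold changes at 21 d (x axis, both panels) of the 213 genes that passed, against the value with the Gapdh difference as a covariate (left, y axis) and the value at 90 d (right, y axis); the line marks equal values. All 213 keep their sign on the left, where 31 pass, and 200 keep it on the right, where 37 pass.

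In the 21 d arrays alone 90 of the 213 genes passed. Across the fits, 16 genes passed each time an array was left out, with the Gapdh and with the beta-actin covariate, in the 21 d arrays alone and when the probe sets of a gene were averaged. Cdkn1a, Cplane1, Dglucy, Endog and Phlda3 were higher and Cabcoco1, Cmss1, Ddah1, Fam172a, Fhit, Fras1, Gtdc1, Klhl13, Ncam2, Smyd3 and Spidr were lower; those outside the naming rule were named after their values were seen. Without the 5 arrays with a Gapdh difference above 0.9, which leaves treated mouse 2 as the sole treated animal and assumes that it varies like the other groups, 8 of the 16 passed: Cdkn1a, Phlda3, Cabcoco1, Fhit, Fras1, Gtdc1, Klhl13 and Ncam2.

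Among repair genes Polk passed. It was the member of 14 translesion genes that rose (1.17% of all genes passed), and of 23 nucleotide excision, 16 base excision and direct reversal, and 28 homologous recombination and Fanconi genes none passed. At an unadjusted p under 0.05 these 3 lists held 7 (30.4%), 6 (37.5%) and 4 (14.3%) genes, and the translesion list 6 (42.9%), against 16.6% of all genes. Mgmt, which removes alkyl groups from guanine, was at 9.27, 9.44, 9.52, 9.31 and 9.33 in the treated mice and 8.83 to 9.14 in the vehicle mice. The groups did not overlap, yet the difference of 0.32 ± 0.08 was just short of the threshold (limma, adjusted p = 0.0545; with the covariate 0.43, adjusted p = 0.0628) and passed without treated mouse 2 (0.31, adjusted p = 0.0458). Rev1, a scaffold of translesion synthesis, was at 6.77 to 7.47 against 6.17 to 7.03 and showed 0.55 (adjusted p = 0.077; with the covariate 0.55, adjusted p = 0.376). Without treated mouse 2, Primpol (0.41), Xrcc1 (0.35), Usp1 (-0.41), Xpa (-0.31) and Cdk7 (-0.42), named after their values were seen, also passed. This fit keeps only treated arrays of high Gapdh difference, and in it 2.82% of all genes rose and 2.65% fell. With the Gapdh covariate and all mice, 0 genes of the translesion, nucleotide excision, and base excision and direct reversal lists passed.

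Among enzymes that could handle 1-MIM-OH and its reactive ester, Sult1c2 alone passed. Sult1a1, the mouse relative of the human transgenes, was at 12.67, 12.45, 12.48, 12.59 and 12.68 in the treated mice and 12.55 to 12.95 in the vehicle mice. The groups overlapped and the difference of -0.22 ± 0.12 did not pass (limma, adjusted p = 0.377). Of 18 sulfotransferase and UGT genes Sult1c2, another cytosolic sulfotransferase, fell: it was at 6.98, 6.38, 6.86, 6.99 and 6.81 against 7.16 to 7.58. No mouse overlapped, with -0.60 ± 0.11 (adjusted p = 0.0149; with the covariate -0.81, adjusted p = 0.00288), and it was just short of the threshold in the 21 d arrays alone (adjusted p = 0.0505). None of 17 alcohol and aldehyde dehydrogenase genes, 20 glutathione S-transferase genes, 24 NRF2 antioxidant genes, 9 AhR genes or 16 CAR and PXR genes passed. At an unadjusted p under 0.05 there were 3, 7, 10, 0 and 4 of them, which is 17.6%, 35.0%, 41.7%, 0% and 25.0% of these lists against 16.6% of all genes.

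Among these, no reporter of xenobiotic sensing passed with all mice. Nqo1, a NRF2 target, was at 6.86, 7.23, 6.90, 6.89 and 7.18 against 6.78 to 7.14 (difference 0.13, limma, adjusted p = 0.703; with the covariate 0.42, adjusted p = 0.352). Cyp1a1, the classical AhR target, was at 6.50, 5.85, 5.73, 5.94 and 5.92 against 5.96 to 6.21 (difference -0.09, adjusted p = 0.811), with treated mouse 1 above and the other 4 below the vehicle range. Cyp2b10, the CAR target, was at 7.07, 8.47, 7.20, 6.88 and 7.45 against 7.85 to 9.20. Only treated mouse 2 lay in the vehicle range, and the difference of -1.04 ± 0.28 (adjusted p = 0.0647) passed without it (-1.31, adjusted p = 0.00724). With the covariate the value was -0.57 (adjusted p = 0.675), and without the 5 arrays of high Gapdh difference it was 0.013. Gsta2, a glutathione S-transferase, showed 0.56 (adjusted p = 0.301), and Gstm4, named after its values were seen, 0.49 (adjusted p = 0.0584).

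Of 28 apoptosis genes Endog rose and Casp6, an executioner caspase, fell, where 1.17% of all genes passed. Casp6 was at 9.17, 9.80, 9.12, 9.41 and 9.32 against 9.77 to 9.99, with treated mouse 2 inside the vehicle range. Its change of -0.51 (limma, adjusted p = 0.0484) was -0.14 with the covariate (adjusted p = 0.783), and it was lost in 19 of the fits that left out an array (adjusted p at most 0.125) and in the 21 d arrays alone (adjusted p = 0.0606). None of 40 cell cycle genes passed, and 4 (10.0%) had an unadjusted p under 0.05, against 16.6% of all genes. Mki67, a marker of dividing cells, was at 5.21, 6.59, 5.20, 5.05 and 5.40 against 4.87 to 5.58, with treated mouse 2 apart (difference 0.17, adjusted p = 0.82). Afp, the fetal albumin relative, showed 0.06 (adjusted p = 0.874), and none of 18 oncofetal and liver tumour markers passed. In a list of 28 markers of rodent hepatocarcinogens Tubb4b, a beta-tubulin, rose by 0.50 (adjusted p = 0.0349) and Wwox fell. With the covariate Tubb4b was at 0.61 and did not pass (adjusted p = 0.0669). Its other probe sets had values from 0.01 to 0.20, none of which passed. Tubb4b also lost its call in 8 of the fits that left out an array (adjusted p at most 0.0983).

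**Figure D4:**
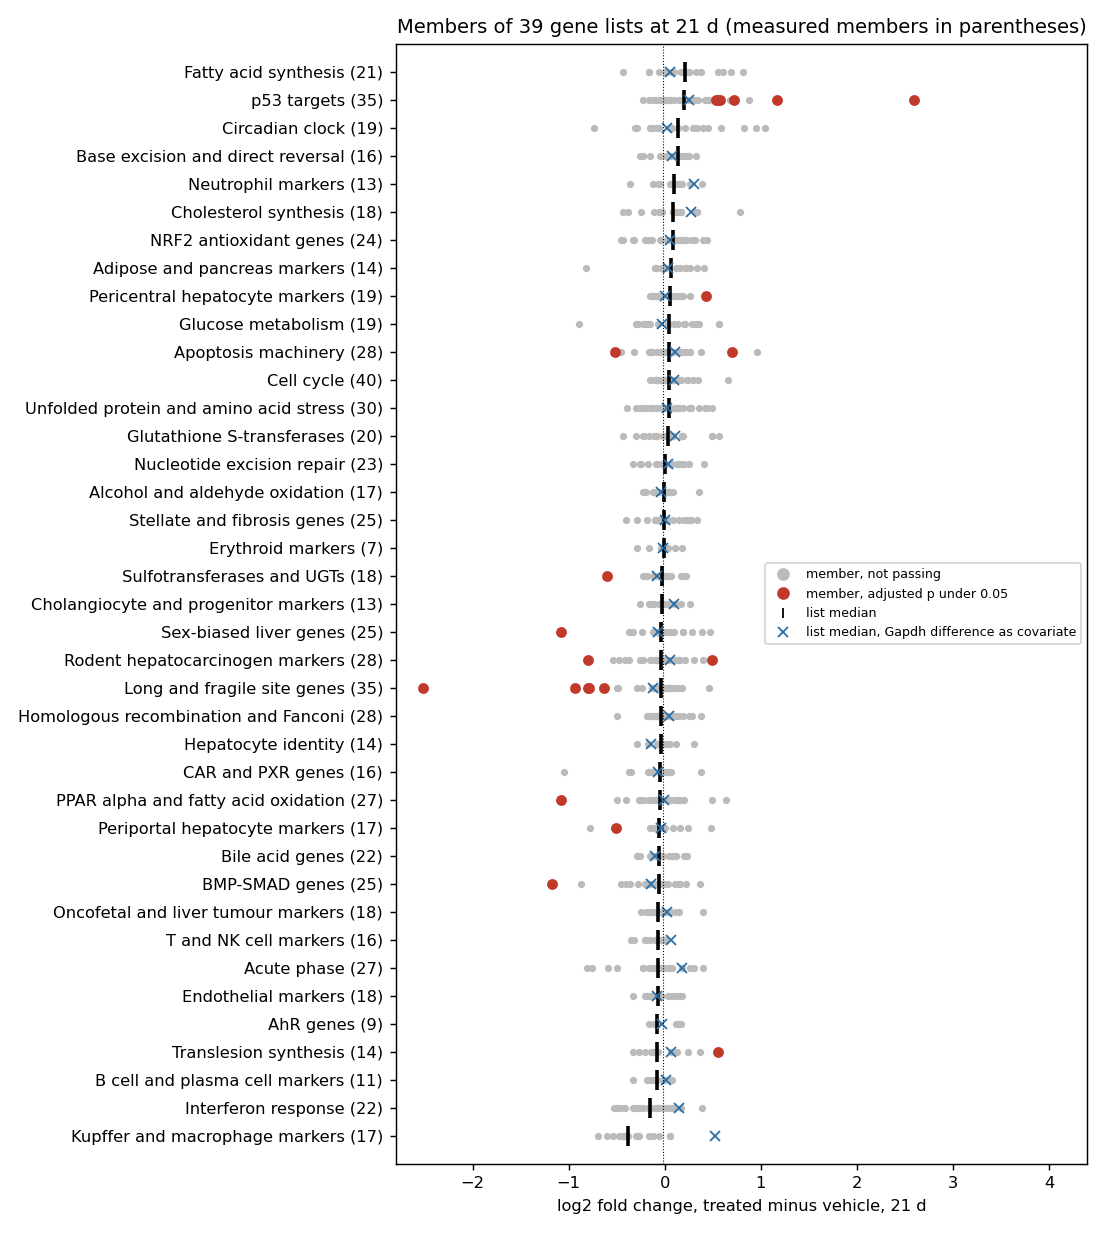
The log2 fold changes at 21 d (x axis) of the measured members of 39 gene lists, with members that passed in red, list medians as bars, medians with the Gapdh difference as a covariate as crosses, and the median of all genes as a dotted line. The p53 targets hold 6 of the red points on the right, the long and fragile site genes 5 on the left, and the Kupffer and macrophage median moves from -0.38 to 0.52 with the covariate.

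Several metabolic and zonation lists held 1 gene that passed, where 1.17% of all genes did. Gulo, which makes vitamin C, was at 11.88, 11.86, 12.06, 12.18 and 12.07 against 11.51 to 11.68. All treated values were higher, with a small rise of 0.43 ± 0.08 (limma, adjusted p = 0.0136; with the covariate 0.28, adjusted p = 0.265), and Gulo was the member of 19 pericentral markers that passed. Hsd17b13, a lipid droplet protein, fell by 0.51 on the log2 scale (adjusted p = 0.0304; with the covariate -0.51, adjusted p = 0.192), as the member of 17 periportal markers that passed. Leaving out treated mouse 1 or vehicle mouse 2, 3, 4 or 5 ended the call of Hsd17b13 (adjusted p at most 0.0882), as did the 21 d arrays alone (adjusted p = 0.083). Abcd2 alone passed among 27 genes of PPAR alpha and fatty acid oxidation and among 25 sex-biased liver genes. No gene passed among 22 bile acid, 21 fatty acid synthesis, 18 cholesterol synthesis, 19 glucose metabolism, 30 unfolded protein and amino acid stress and 14 hepatocyte identity genes. In these lists 18.2%, 42.9%, 22.2%, 36.8%, 16.7% and 7.14% of members had an unadjusted p under 0.05, against 16.6% of all genes.

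The circadian list showed how far treated mouse 2 differed from the other treated mice. None of 19 clock genes passed with all mice. Per3, a repressor of the clock, was at 8.52, 6.45, 8.79, 8.59 and 7.36 against 6.64 to 7.56, a difference of 1.05 ± 0.32 (limma, adjusted p = 0.0994; with the covariate 0.57, adjusted p = 0.753). Arntl, the activator of the clock, named after its values were seen, was at 6.02, 9.0, 5.77, 6.70 and 7.52 against 6.63 to 8.20, a difference of -0.73 (adjusted p = 0.425). For Arntl treated mice 1 and 3 were below and treated mouse 2 above every vehicle mouse, and for Per3 treated mice 1, 3 and 4 were above and treated mouse 2 below every vehicle mouse. Without treated mouse 2, Per3 (1.42, adjusted p = 0.00585), Per2 (1.31), Usp2 (1.30) and Tef (0.80) rose and Arntl fell (-1.23, adjusted p = 0.0395), in a fit that keeps only treated arrays of high Gapdh difference and where 2.82% of all genes rose and 2.65% fell. With the Gapdh covariate 0 of the 19 clock genes passed. The hour of killing is not given in the sources used here, so its part in these values was not tested. G6pc, the last enzyme of glucose release, showed -0.89 (adjusted p = 0.176) with all mice, -0.57 with the covariate (adjusted p = 0.783) and -1.30 (adjusted p = 0.00808) without treated mouse 2, which was at 12.49 against 10.10 to 10.95 in the other treated mice and 11.05 to 12.29 in the vehicle mice.

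Markers of macrophages, neutrophils, the acute phase and the interferon response differed widely between animals within each group. The mean level of 17 Kupffer and macrophage markers was 7.82, 10.25, 7.98, 8.13 and 7.98 in treated mice 1 to 5 and 9.88, 8.15, 8.28, 8.88, 9.22 and 8.11 in vehicle mice 1 to 6. Treated mouse 2 was highest, followed by vehicle mice 1, 5 and 4. None of the 17 passed with all mice, at an unadjusted p under 0.05 the count was also 0, 15 had a negative value, and the list median was -0.38, the lowest of the 39 lists. It was 0.52 with the covariate and -0.84 without treated mouse 2, so its sign depended on that choice. Vsig4, a Kupffer cell receptor, fell without treated mouse 2 (-1.21, limma, adjusted p = 0.0284; with the covariate and all mice 0.31, adjusted p = 0.918).

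Neutrophil markers had a mean level of 7.60 in treated mouse 2, 5.68 to 5.86 in the other treated mice and 5.64 to 6.74 in the vehicle mice. The acute phase list had 13.64 in treated mouse 2, 11.84 to 12.10 in the other treated mice and 11.99 to 12.96 in the vehicle mice. Interferon-response genes had 8.57 in treated mouse 2, 7.66 to 7.76 in the other treated mice and 7.63 to 8.92 in the vehicle mice. In each list vehicle mice 1, 4 and 5 were above vehicle mice 2, 3 and 6. None of the 13 neutrophil, 27 acute phase and 22 interferon genes passed, and no gene passed among 13 cholangiocyte and progenitor, 25 stellate and fibrosis, 18 endothelial, 16 T and NK cell, 11 B and plasma cell, 7 erythroid and 14 adipose and pancreas markers. The part of these cell types in the calls was not tested.

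Saa1, an acute phase protein of the liver, shows this spread. It was at 10.75, 14.83, 11.18, 11.16 and 11.87 in treated mice 1 to 5 and between 11.17 and 14.12 with a median of 12.43 in the vehicle mice (difference -0.59 ± 0.89, limma, adjusted p = 0.818). S100a8, a neutrophil protein, was at 6.23, 10.53, 5.78, 5.09 and 5.26 against 4.90 to 8.26 (difference 0.39, adjusted p = 0.896). Hmox1, haem oxygenase, was at 8.99 in treated mouse 2, 7.31 to 7.59 in the other treated mice and 7.66 to 8.87 in the vehicle mice (difference -0.45, adjusted p = 0.471).

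**Figure D5:**
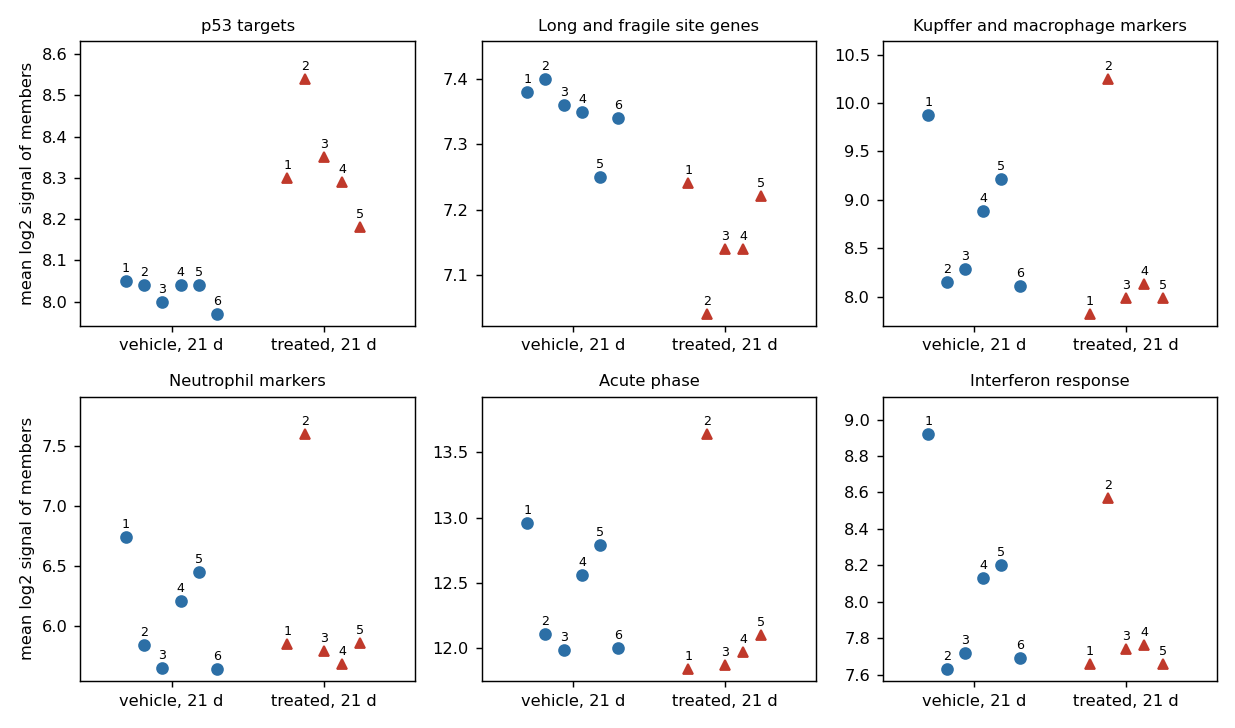
The mean log2 signal of the measured members of 6 gene lists in each 21 d mouse, numbered within its group. The groups do not overlap for p53 targets and, by a narrow margin, for long and fragile site genes, whose mean includes Fhit. Treated mouse 2 and vehicle mice 1, 4 and 5 are the highest for macrophage, neutrophil and acute phase lists.

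Mice treated for 90 d are separate animals with their own controls, so they show how far the 21 d changes recurred. Of the 213 genes, 200 had the same sign at 90 d, against 55.77% of all genes, and 37 passed there, where 136 genes (0.748%) passed in all. The shared 37 are 17.37% of the 21 d and 27.21% of the 90 d genes. The median log2 fold change of the 105 genes that rose was 0.43 at 21 d and 0.20 at 90 d, and that of the 108 that fell was -0.45 and -0.19. The genes were chosen by their 21 d values. No probe set passed the test of the difference between both effects (limma, 0 of 45037, or 0%), while 4320 (9.59%) had an unadjusted p under 0.05. Without treated mouse 2 of the 21 d group, 53 of 45037 probe sets passed this test. That fit keeps only 21 d treated arrays of high Gapdh difference.

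Individual genes differed in how they compared. Cdkn1a, Cplane1 and Phlda3 had log2 fold changes of 3.67, 3.04 and 1.84 at 90 d, and Fhit one of -2.40. Their differences between times, 21 d minus 90 d, were -1.07 ± 0.49 for Cdkn1a, -1.43 ± 0.36 for Cplane1, -0.67 ± 0.28 for Phlda3 and -0.11 ± 0.46 for Fhit (limma, adjusted p = 0.509, 0.492, 0.492 and 0.957). Id1 was at -0.08 (adjusted p = 0.942) at 90 d, with a difference of -1.09 ± 0.35 (adjusted p = 0.492). Wwox was at -1.13 and Nqo1 at 0.63 at 90 d, both past the threshold (adjusted p = 0.000515 and 0.0241); their differences were 0.33 ± 0.23 and -0.49 ± 0.19 (adjusted p = 0.64 and 0.492). A p above the threshold does not show that the effects at both times were equal.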

How the data were processed

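Liver RNA was labelled by 3' in vitro transcription and hybridised to Affymetrix Mouse Genome 430 2.0 arrays, per the labels' protocols. The deposited values are log2 signals that the authors made with Partek and RMA, per the submitters' processing notes; the sources used here give no versions, and the base of the logarithm was inferred from the range of values, 2.23 to 15.41. Arrays give no read depth, and the number of animals limits the precision. Of 45101 probe sets, 64 controls were left out. Of the 45037 tested, 34945 had 1 gene in GEO's platform table, 932 several and 9160 none. Each gene was read from 1 probe set that names no other gene, chosen for the highest mean over the 23 arrays.

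limma 3.58.1 in R 4.3.3 (lmFit and eBayes, 4 group means, 19 residual degrees of freedom) gave every fold change and adjusted p, with Benjamini-Hochberg adjustment over all 45037 probe sets and a threshold of 0.05. Single values were compared by 2-sided exact permutation tests. On data simulated for the 21 d comparison limma recovered 76.1% of probe sets changed 1.5-fold, 98.5% of those changed 2-fold and 95.5% of those changed 3-fold. Of the unchanged probe sets among the 45037, 11 were called falsely. The simulated noise was normal, independent between probe sets and equal in spread across groups. It held no difference in RNA quality and no outlying mouse, so it does not show how limma fares with those. Genes named were the 20 largest rises and 20 largest falls that passed, up to 3 passing members of each of 39 lists (or the member with the largest change where none passed) and 14 set genes. Others were named after their values were seen. The members and lists were chosen with earlier results of these data known.

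Alternatives were covariates for the Gapdh or beta-actin difference, left-out arrays, 21 d arrays alone, a filter on dim probe sets, quantile normalisation, median centring, trend and robust settings, array weights, a replicate block and averaged probe sets. Leaving out treated mouse 2 in the 21 d arrays alone, and the list counts under 3 settings, were added after seeing the data.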

Additional observations from a re-analysis of the deposited data

Results flagged for a closer look

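In groups of 5 or 6 arrays, a sample far from the others was looked for in 170 groups by Dixon's criterion, and 18 met it. Chance gives about 1 in 20 for independent groups. These groups come from the same mice and largely from genes named for their values, so that rate cannot judge the count. Treated mouse 2 was the sample in 10 of the 18. Its beta-actin difference was 1.51 against 2.44 to 2.69 in the other treated mice. It was high for Nectin3 (10.22 against 9.41 to 9.55), Hmox1 (8.99 against 7.31 to 7.59), the metal-binding protein Mt1 (13.23 against 9.36 to 10.04) and the macrophage receptor Vsig4 (11.89 against 9.08 to 9.52). It was also high for S100a8 (10.53 against 5.09 to 6.23), the cytotoxic granule gene Nkg7 (6.05 against 4.74 to 5.10), Saa1 (14.83 against 10.75 to 11.87) and Mki67 (6.59 against 5.05 to 5.40), and low for the pericentral enzyme Cyp1a2 (12.59 against 13.45 to 13.69).

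Treated mouse 3 was low for A530020G20Rik (5.73 against 5.91 to 5.98) and Obp2a (4.24 against 4.61 to 4.75), and treated mouse 1 was high for Cyp1a1 (6.50 against 5.73 to 5.94). Among vehicle mice, mouse 2 was high for the adipocyte gene Adipoq (6.58 against 4.01 to 4.42), mouse 4 for Wee1 (9.01 against 7.52 to 8.05) and Nqo1 (7.14 against 6.78 to 6.89), and mouse 5 for Polk (7.17 against 6.76 to 6.89). Vehicle mouse 6 was low for Mgmt (8.83 against 9.03 to 9.14).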

How the results depend on the processing

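With 431 probe sets, 105 higher and 108 lower genes as reported, counts of probe sets, higher genes and lower genes were 207, 62 and 48 in the 21 d arrays alone, 2064, 525 and 449 there without treated mouse 2, 123, 30 and 43 with the Gapdh covariate, 125, 33 and 38 with the beta-actin covariate, 813, 258 and 202 for probe sets with a mean of at least 6, and 1426, 383 and 300 with array weights. Averaging probe sets gave 97 higher and 143 lower genes. Leaving out 1 array gave 133 to 2265 probe sets, 30 to 513 higher and 43 to 482 lower genes. Probe sets whose effect differed between times numbered 6 without the 5 arrays of high Gapdh difference and 0 to 53 when 1 array was left out. The Gapdh difference between groups ranged from 0.561 to 0.888 and the beta-actin difference from 0.495 to 0.79 when 1 mouse was left out.

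Same-numbered mice share only a number: their deviations correlated at -0.191, -0.139, -0.147, -0.195 and -0.192, and 0 of 5 correlated best with its own number. With the replicate block 0 probe sets, 0 higher and 0 lower genes passed (5311 probe sets had an unadjusted p under 0.05). With it the Gapdh and beta-actin differences were 0.682 and 0.602 (exact permutation test, p = 0.125 for both).

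Of the named genes whose sign turned, Crem alone passed with all arrays; 211 of the 213 passing genes kept their sign without the 5 arrays of high Gapdh difference. The cause was not tested. Without the 5 arrays of high Gapdh difference, log2 fold changes were 0.048 for Crem, 0.68 for Rad51b, -0.42 for Adh6-ps1, -0.17 for Gsta2, 0.76 for Hmox1, -0.60 for Cyp1a2, 0.013 for Cyp2b10, -0.14 for Wee1, -0.44 for Per3, 2.00 for Mt1, 1.17 for Gbp2, -1.06 for Thrsp, 0.74 for G6pc, -0.52 for Peg3, 1.37 for Vsig4, 0.04 for Acta2, 0.02 for Pecam1, 0.58 for Nkg7, 0.43 for Jchain, 0.12 for Hba-a2 and 2.28 for Saa1. With the Gapdh covariate they were 0.13 for Rad51b, -0.042 for Adh6-ps1, 0.12 for Hmox1, -0.18 for Cyp1a2, 0.016 for Mt1, 0.37 for Gbp2, -0.34 for Peg3, 0.31 for Vsig4, 0.055 for Nkg7 and 0.33 for Saa1. With the beta-actin covariate they were 0.041 for Rad51b, -0.048 for Adh6-ps1, 0.037 for Hmox1, -0.13 for Cyp1a2, 0.26 for Gbp2, -0.25 for Peg3, 0.17 for Vsig4 and 0.095 for Saa1. Array weights gave -0.010 for S100a8 and -0.092 for Btg2, quantile normalisation -0.0070 and the replicate block -0.034 for Btg2. When 1 array was left out, S100a8 ranged from -0.60 to 0.80, Btg2 from -0.30 to 0.26, Mki67 from -0.11 to 0.28 and Afp from -0.0067 to 0.12; the lowest values of the former 3 were those without treated mouse 2, and the same in the 21 d arrays alone. Signal near background limits what can be seen: 8 of the 213 genes had both group means below the array medians. Gmds, Naaladl2, Cabcoco1, Obp2a and Snhg14 were among them.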

Other observations

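Poly-A control RNAs added before labelling had mean log2 signals of 7.93, 6.42, 8.25, 6.27 and 6.33 in treated mice 1 to 5 and from 5.46 to 7.52 in the vehicle mice (difference 0.128, 2-sided exact permutation test, p = 0.807). Without treated mouse 2, some lists with no call among all mice gained members. Elovl6, Fads2 and Insig1 rose among fatty acid synthesis genes, and among glucose metabolism genes Foxo1 rose while G6pc, Fbp1 and Slc2a2 fell. This fit keeps only treated arrays of high Gapdh difference, and in it 2.82% of all genes rose and 2.65% fell. With the Gapdh covariate and all mice, 0 genes of either list passed.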
